A study of Mus musculus with 24 samples.

Results

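The 55 genes described here are the collagen and laminin genes of the mouse RNA-seq count tables, chosen by symbol alone. A gene was taken where its whole symbol was Col, a number, the letter a and a number, or Lam, one of the letters a to c and a number. This gave 44 collagen genes and 11 laminin genes among 51912 gene rows. Gene expression was measured by RNA-seq in 9 libraries, with 3 biological replicates in each of 3 groups. Embryonic stem cells (ESCs) were wild-type cells of the TC-1 line, of the strain C57BL/6 X 129S5, kept on gelatin with LIF, the cytokine that holds them undifferentiated. Neuronal progenitors (NPs) were made in culture from the same line by aggregating the cells and adding retinoic acid. TET TKO ESCs lacked all of the TET enzymes (TET1, TET2 and TET3), which oxidise methylated cytosine, and came from another line, of the strain C57BL/6 X 129/sv. Line, strain and genotype therefore cannot be told apart in the comparison of TET TKO ESCs with ESCs.

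Collagens are secreted as trimers of chains that wind into a triple helix. Fibrillar collagens (types I, II, III, V, XI and others) pack into the banded fibrils of connective tissue and cartilage, whereas type IV collagen forms the meshwork of the basement membrane, the thin sheet under epithelia and around the early embryo. Laminins are the other main polymer of that sheet, each a cross-shaped trimer of an alpha, a beta and a gamma chain. Laminin and type IV collagen are among the first matrix proteins that the mouse embryo makes, and neural progenitors rest on a basement membrane. The 55 genes were sorted into 17 basement membrane genes (6 of type IV collagen and the 11 laminins), 11 fibrillar collagens and 27 others. The others are collagens that decorate fibrils (FACITs), type VI and related beaded-filament collagens, the multiplexins Col15a1 and Col18a1, transmembrane collagens, short-chain collagens, Col7a1 of the anchoring fibril, Col26a1 and Col28a1.

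Type IV collagen genes lie in head-to-head pairs, so that a pair starts from 1 shared stretch of DNA. Their start regions are printed because all 4 of the genes called between NPs and ESCs in the basement membrane class are members of these pairs. Each window holds the 250 bases before a gene's start and the first 50 from it on, from RefSeq (GRCm38.p6), 5′ to 3′ on the strand of the gene, with the CG dinucleotides, the main sites of DNA methylation, in capitals. Windows of 40 of the 55 genes were used, 44 windows in all. Lama3 was not among the 40, whether or not it has such a window, so the member values below leave it out.
Col4a1 (chr8:11312777-11313076, minus strand): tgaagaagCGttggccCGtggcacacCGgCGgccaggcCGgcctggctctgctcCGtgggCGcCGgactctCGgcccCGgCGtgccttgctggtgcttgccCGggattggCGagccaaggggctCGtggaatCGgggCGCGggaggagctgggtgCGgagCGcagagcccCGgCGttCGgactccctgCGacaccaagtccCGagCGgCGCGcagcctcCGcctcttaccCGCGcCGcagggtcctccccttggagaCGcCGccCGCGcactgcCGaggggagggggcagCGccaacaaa
Col4a2 (chr8:11312555-11312854, plus strand): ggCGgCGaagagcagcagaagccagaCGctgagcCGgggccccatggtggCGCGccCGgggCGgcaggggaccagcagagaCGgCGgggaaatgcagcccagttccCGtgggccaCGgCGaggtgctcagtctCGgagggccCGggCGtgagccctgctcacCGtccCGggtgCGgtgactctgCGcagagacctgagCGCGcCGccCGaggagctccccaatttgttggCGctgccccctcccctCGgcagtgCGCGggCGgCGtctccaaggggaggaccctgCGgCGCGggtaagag
Col4a5 (chrX:141475169-141475468, plus strand): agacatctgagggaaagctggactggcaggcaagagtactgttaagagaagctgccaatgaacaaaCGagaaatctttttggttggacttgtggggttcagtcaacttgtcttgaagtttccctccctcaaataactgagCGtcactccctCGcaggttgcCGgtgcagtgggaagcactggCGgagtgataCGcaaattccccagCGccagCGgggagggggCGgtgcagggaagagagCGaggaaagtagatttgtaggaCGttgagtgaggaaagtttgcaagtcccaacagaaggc
Col4a6 (chrX:141474027-141474326, minus strand): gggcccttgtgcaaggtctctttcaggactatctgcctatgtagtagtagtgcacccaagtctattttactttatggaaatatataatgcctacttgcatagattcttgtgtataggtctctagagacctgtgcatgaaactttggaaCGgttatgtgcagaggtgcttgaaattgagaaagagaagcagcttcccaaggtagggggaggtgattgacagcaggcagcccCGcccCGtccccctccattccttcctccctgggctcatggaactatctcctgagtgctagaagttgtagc

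The windows of Col4a1 and Col4a2 share 78 bases, and the annotated genes themselves overlap by 22 bases. The Col4a1 window holds 37 CG dinucleotides, more than 94.4% of all 32851 windows, and that of Col4a2 holds 33. Col4a4 and Col4a3 start 71 bases apart on chromosome 1, and Col4a6 and Col4a5 start 1308 bases apart on the X chromosome. The latter pair is poorer in CG, with 11 in the Col4a5 window and 3 in the Col4a6 window. Over the 44 windows the median was 10.5 CG, against 7 over all windows.

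The next windows belong to adjacent genes of beaded-filament chains on chromosome 9, printed because Col6a4 and Col6a5 had the largest falls in NPs and Col6a4 was the single member called lower in TET TKO ESCs. They lie 28810 bases apart on the same strand, with Col6a6 a further 27917 bases downstream. Their windows hold 5 CG (Col6a4) and 10 CG (Col6a5).
Col6a4 (chr9:106096642-106096941, minus strand): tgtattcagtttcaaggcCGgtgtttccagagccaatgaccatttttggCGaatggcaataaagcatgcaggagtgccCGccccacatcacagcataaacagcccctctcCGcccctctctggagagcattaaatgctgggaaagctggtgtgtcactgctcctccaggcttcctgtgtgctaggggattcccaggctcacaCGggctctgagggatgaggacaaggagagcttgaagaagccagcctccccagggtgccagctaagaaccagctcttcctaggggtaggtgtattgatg
Col6a5 (chr9:105960594-105960893, minus strand): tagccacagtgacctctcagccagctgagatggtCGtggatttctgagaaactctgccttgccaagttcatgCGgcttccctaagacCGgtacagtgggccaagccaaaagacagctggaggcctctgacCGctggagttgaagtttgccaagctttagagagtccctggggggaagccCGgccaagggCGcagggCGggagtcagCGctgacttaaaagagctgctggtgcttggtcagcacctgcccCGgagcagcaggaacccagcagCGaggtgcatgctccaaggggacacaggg

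On either strand, the letters GGGCGG (the core of a GC box) were in 26 of the 44 windows, or 59.1%, against 35.7% of all windows. CCAAT was in 14 of the 44, against 37.4% of all windows, and TATAAA in 5, against 13.6%. These matches are letters in a window and no evidence of binding. The 9 windows of genes called higher in NPs had a median of 11 CG (0 to 37), and the 5 windows of genes called lower had a median of 10 CG (5 to 20), so the ranges overlapped.

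The libraries held 20519702 to 23976914 counts in ESCs and NPs and 80704741 to 93210102 in TET TKO ESCs, of which 59692 to 243056 lay in the 55 genes. Levels are given as RPKM, counts scaled by exon length and by library size, so that genes of different length can be compared. In TET TKO ESCs, Tet1 stood at 11.3 to 16.1 RPKM against 60.8 to 68.5 in ESCs, Tet2 at 2.32 to 2.70 against 16.1 to 20.5, and Tet3 at 0.474 to 0.617 against 0.631 to 0.770. All 7 neural progenitor markers were called higher in NPs and all 6 pluripotency markers lower. The summed pluripotency markers were 1279 to 1321 RPKM in ESCs, 5.36 to 9.50 in NPs and 711 to 877 in TET TKO ESCs. NPs also held RNA of other lineages. The summed level of 10 extraembryonic endoderm markers was 24.6 to 28.0 RPKM in NPs against 2.34 to 4.32 in ESCs. In bulk samples, fewer cells of a type and less RNA per cell cannot be told apart.

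ESCs expressed mainly laminin genes and Col18a1, a basement membrane proteoglycan core whose C-terminal fragment is endostatin. Col18a1 had the highest level of the 55 genes in each group, with 109, 120 and 96.7 RPKM in the ESC libraries, 169, 173 and 111 in the NP libraries, and 94.0, 116 and 98.1 in the TET TKO libraries. These ranges overlapped, and Col18a1 was called in neither comparison. In ESCs it was followed by Lamc1, Lama5, Lamb1, Lama1, Col4a1, Col9a2, Lamb2, Col5a1 and Col4a2, in this order of mean RPKM. In NPs the order after Col18a1 was Col4a1, Col2a1, Col4a2, Lamc1, Lama5, Lama1, Lamb1, Lamb2 and Col5a1. Col4a1, Col4a2 and the cartilage collagen Col2a1 thus stood ahead of every laminin in NPs by their means. Col4a1 (mean 64.8 RPKM, SD 6.33, n = 3) and Col2a1 (63.4, SD 10.5, n = 3) did not differ beyond their spread there.

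**Figure D1:**
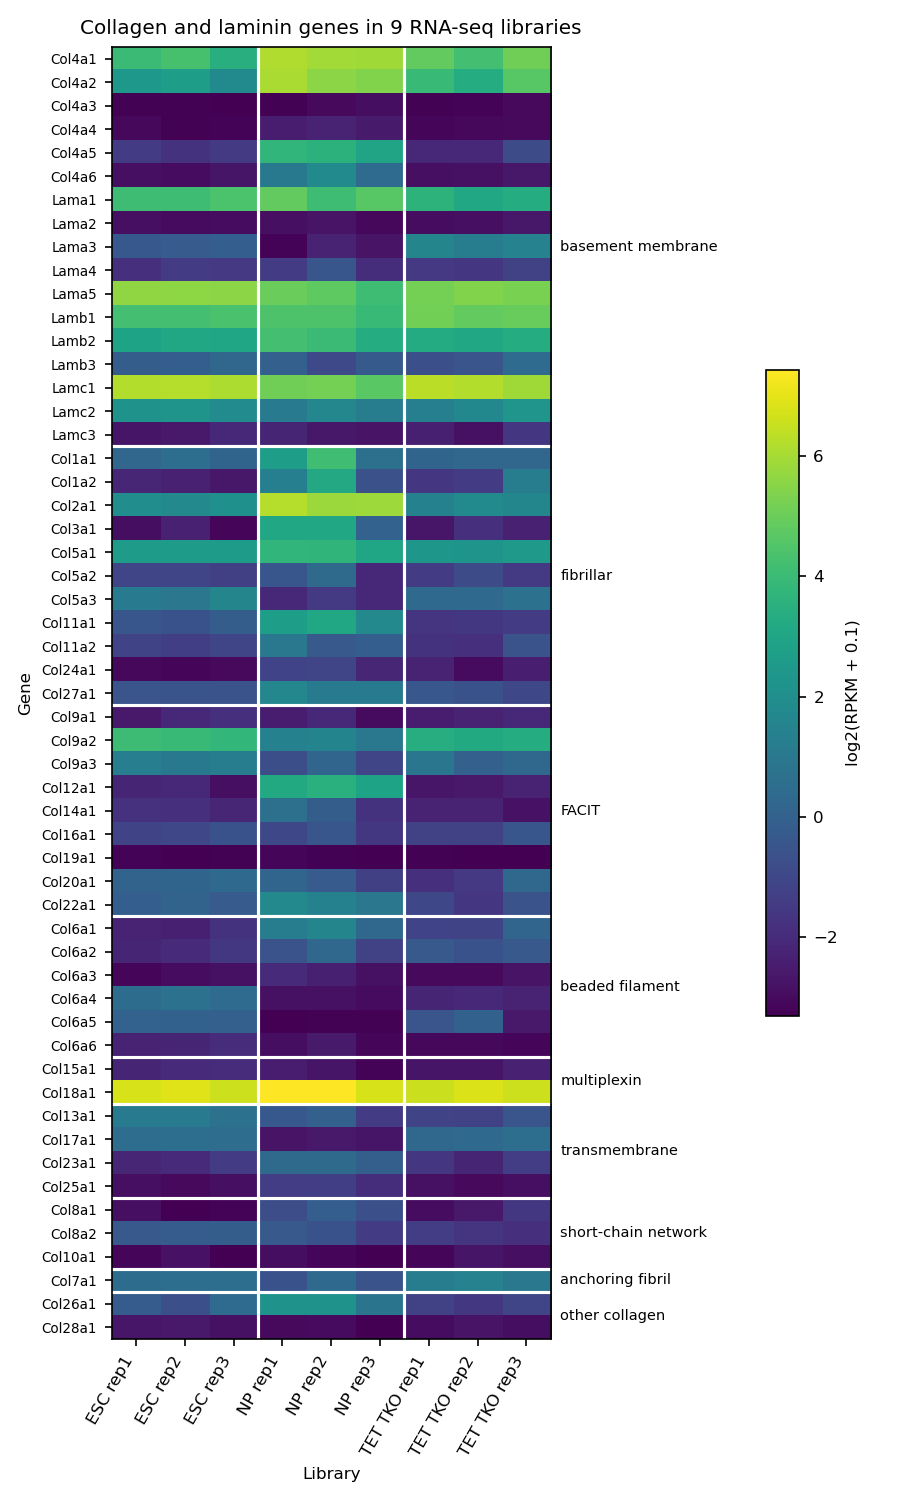
Level of the 55 genes (rows, in classes) in the 9 libraries (columns), as log2(RPKM + 0.1) on a colour scale from dark (low) to yellow (high). Col18a1 is bright in every library, Lamc1 and Lama5 are bright in ESCs and TET TKO ESCs, and Col4a1, Col4a2 and Col2a1 are bright in NPs.

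NPs had more RNA of type IV collagen, several fibrillar collagens and the fibril-associated Col12a1 than ESCs, and less of a smaller set that included Col9a2, Col17a1 and a pair of beaded-filament genes. A gene was tested in a comparison where it reached 1 RPKM in at least 1 of the 6 libraries, and called where the adjusted p was under 0.001 and the fold change was 3 or more (1.58 on the log2 scale), by edgeR's quasi-likelihood test over all genes tested with Benjamini-Hochberg adjustment. Of the 55 genes, 37 were tested between NPs and ESCs. Among them, 11 were called higher, beside a background of 12.4% of the 15197 genes tested, and 5 were called lower, beside a background of 9.98%. The other 21 were not called. DESeq2 called more of them, 15 higher and 7 lower. Its share over all genes was not counted, here or below, so its counts have no background. The median difference of the 37 genes was 0.90 on the log2 scale, against 0.03 over all genes tested. Without regard to the test, 24 of the 55 genes lay above every ESC library in all 3 NP libraries, 16 lay below, and 15 overlapped. No such count was made over all genes, so this one and the like counts of other lists below have no background. The test passed genes through their higher group, so the 37 are not a random part of the 55.

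**Figure D2:**
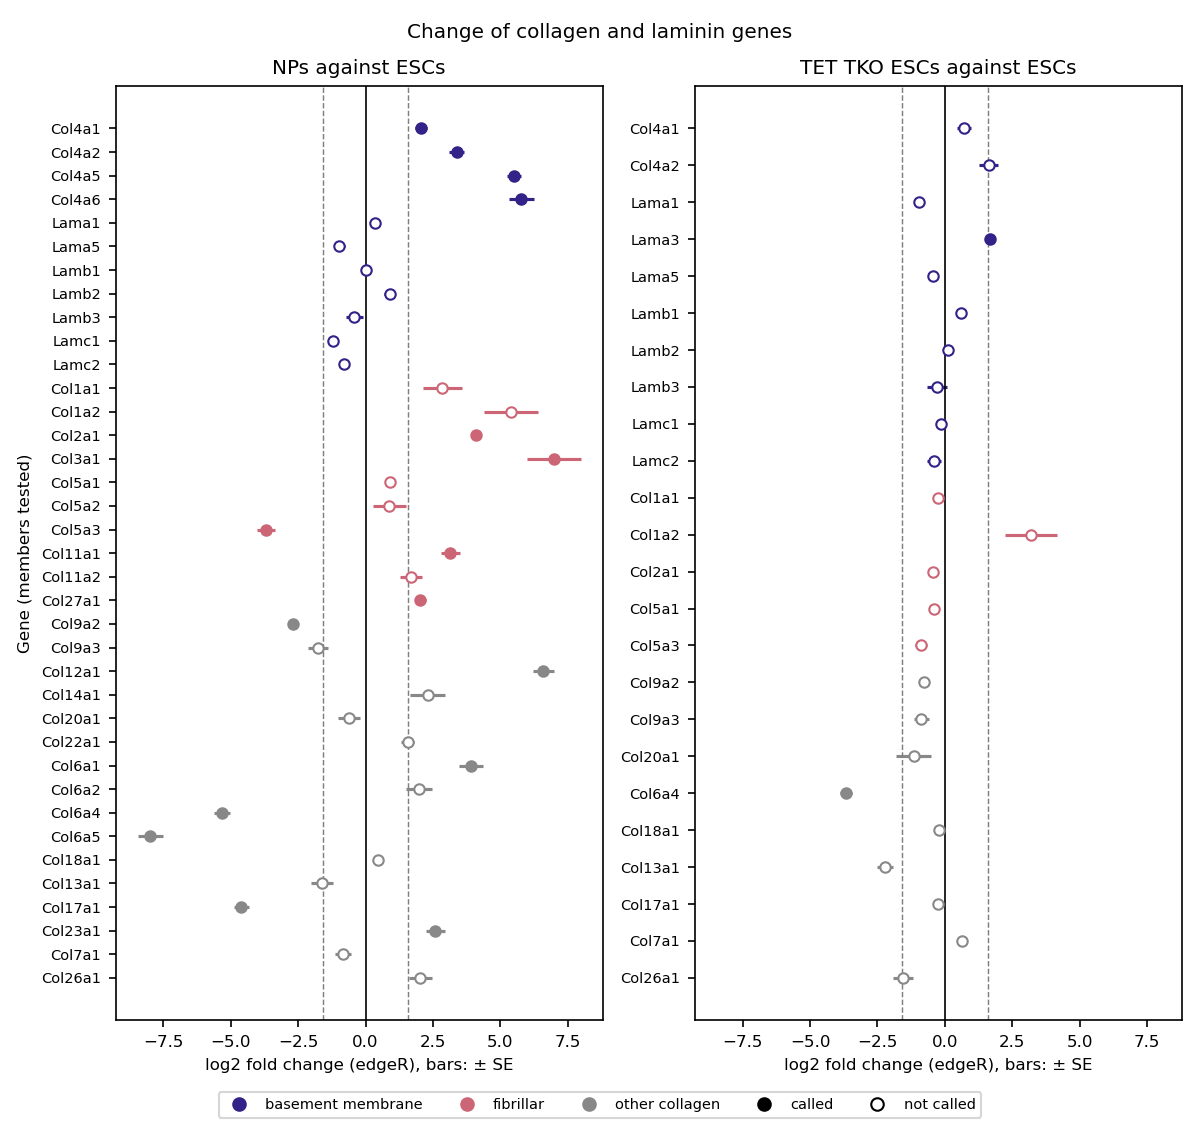
Log2 fold change (x axis, points, with bars of ± 1 SE) of each tested gene (y axis) in NPs against ESCs (left, 37 genes) and in TET TKO ESCs against ESCs (right, 24 genes), from 3 libraries a group. Filled points are called, open points are not, and dashed lines mark a fold of 3. In the left panel the type IV collagen genes lie to the right of the upper line and the laminins between the lines. In the right panel Lama3 (called), Col4a2 and Col1a2 (not called) lie past the upper line. Col6a4 (called) and Col13a1 (not called) lie past the lower line there.

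In the basement membrane class the collagens and the laminins differed. All 4 called genes were chains of type IV collagen, and none of the 7 laminins tested was called. Of the 17 genes, 11 were tested, with 4 called higher and 0 called lower, beside the backgrounds of 12.4% and 9.98%. In this class DESeq2 gave the same counts. At an unadjusted p under 0.05 in edgeR, 5 were higher and 3 lower, beside 5230 and 5035 of all 15197 genes tested. The median difference of the 11 was 0.34 on the log2 scale.

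Col4a1 and Col4a2 encode the chains of the common network that is laid down in nearly all basement membranes. Col4a1 was at 15.9, 19.5 and 10.9 RPKM in ESCs and at 72.0, 62.3 and 60.1 RPKM in NPs. Every NP library lay above every ESC library, and the difference was 2.05 ± 0.21 on the log2 scale (SE, n = 3 and 3, edgeR adjusted p = 5.23e-05), or 4.15-fold. Col4a2 was at 5.20, 6.27 and 3.36 RPKM in ESCs and at 66.4, 47.6 and 41.6 in NPs. Its rise of 3.37 ± 0.27 (log2, edgeR adjusted p = 1.53e-05) was the larger of the pair. Col4a1 RNA was 3.14 ± 0.10 times as high as Col4a2 RNA in ESCs (SD, n = 3) and 1.28 ± 0.18 times as high in NPs, and the libraries did not overlap. Counting did not use strand, so reads within the 22 shared bases cannot be told apart by gene. These bases are 0.295% of the exon bases of Col4a1. Of the exon bases of Col4a2, 0.982% are shared with other genes.

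Col4a5 and Col4a6, the X-linked pair, encode chains of more restricted networks, of which that with Col4a5 is known from the glomerular basement membrane. Both went from near absence in ESCs to clear expression. Col4a5 was at 0.266, 0.198 and 0.254 RPKM in ESCs and 13.4, 12.0 and 7.79 RPKM in NPs, a rise of 5.51 ± 0.26 on the log2 scale (edgeR adjusted p = 1.28e-06). Col4a6 was at 0.0354, 0.0287 and 0.0510 RPKM in ESCs, on 5 to 10 counts a library, and at 1.95, 3.31 and 1.25 RPKM in NPs. Its rise was 5.77 ± 0.47 on the log2 scale (edgeR adjusted p = 1.69e-05). The third pair, Col4a3 and Col4a4, stayed under 0.105 RPKM or at it in every ESC and NP library and was not tested. Col4a4, chosen after its values were seen, nevertheless lay higher in each NP library (0.0691 to 0.105 RPKM) than in any ESC library (0.00431 to 0.0177 RPKM).

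Most markers of extraembryonic endoderm, a lineage known for thick basement membranes, also lay higher in NPs than in ESCs. Of the 10 markers, 9 lay above every ESC library in all NP libraries, and Gata6, Sox17, Foxa2 and Ttr were called higher among 7 tested. The first count has no background over all genes, and the calls are to be read beside 12.4%. No marker of the list was at 0 in an NP library, whereas Ttr was at 0 in ESC replicates 1 and 3 and Afp in ESC replicate 2. The order of the NP libraries differed, since the summed markers were lowest in NP replicate 1 (24.6 RPKM), where the summed type IV collagen was highest (154 RPKM, against 125 and 111 in the others). Their part in the rise of type IV collagen was not tested.

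The 7 laminin genes tested differed less from ESCs, some above and some below them. Lamc1, the gamma chain shared by most laminins, was at 74.1, 76.5 and 68.6 RPKM in ESCs and at 34.0, 36.4 and 25.4 in NPs. The groups were apart, and the difference of -1.21 ± 0.14 (log2, edgeR adjusted p = 0.000119) missed the call on its size alone. Lama5, an alpha chain of laminins used to attach stem cells in culture, was at 49.4, 49.0 and 47.8 RPKM in ESCs and 31.3, 27.2 and 17.0 in NPs, a difference of -0.97 ± 0.20 (edgeR adjusted p = 0.0025). Lama1, the alpha chain of the laminin that the early embryo makes first, overlapped between the groups, with 17.0, 17.1 and 21.0 RPKM in ESCs and 28.5, 17.1 and 24.6 in NPs (0.34 ± 0.19, edgeR adjusted p = 0.154). None of these genes reached the limits of a call.

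Of the beta chains, Lamb1 overlapped with 18.8, 18.6 and 20.1 RPKM in ESCs and 21.6, 21.5 and 15.0 in NPs, and its fitted difference was 0.00 ± 0.14 on the log2 scale, with a sign that turned with the setting. Lamb2, known from mature basement membranes and the synapse, was at 7.42, 8.35 and 8.14 RPKM in ESCs and at 18.4, 16.2 and 10.2 in NPs (0.89 ± 0.20, edgeR adjusted p = 0.00433). It lay higher in all NP libraries and was not called. Lama3, the alpha chain of an epithelial laminin of skin, was not tested here because it stayed under 1 RPKM. It had 155, 179 and 220 counts in ESCs and 2, 29 and 12 in NPs, or 0.678 to 0.833 RPKM against 0.00874 to 0.111 RPKM. In the fit without the filter it was called lower (-3.73 ± 0.46, edgeR adjusted p = 6.08e-08), as it was with the filter on 10 counts and with all 3 groups in the fit.

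Written as shares, the laminin alpha chains shifted from Lama5 toward Lama1. Lama5 held 73.4%, 73.0% and 68.4% of the summed RPKM of the 5 alpha chains in ESCs and 52.1%, 60.4% and 40.7% in NPs. Lama1 held 25.2% to 30.1% in ESCs and 37.9% to 58.8% in NPs. Lamb1 held 67.0% to 69.5% of the beta chains in ESCs and 52.8% to 58.0% in NPs. Lamc1 held at least 91.7% of the gamma chains in all of these libraries. Groups of 3 libraries that do not overlap, as for Lama1, Lama5 and Lamb1, reach p = 0.10 at best in a two-sided exact permutation test, so no p is given for shares and sums.

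**Figure D3:**
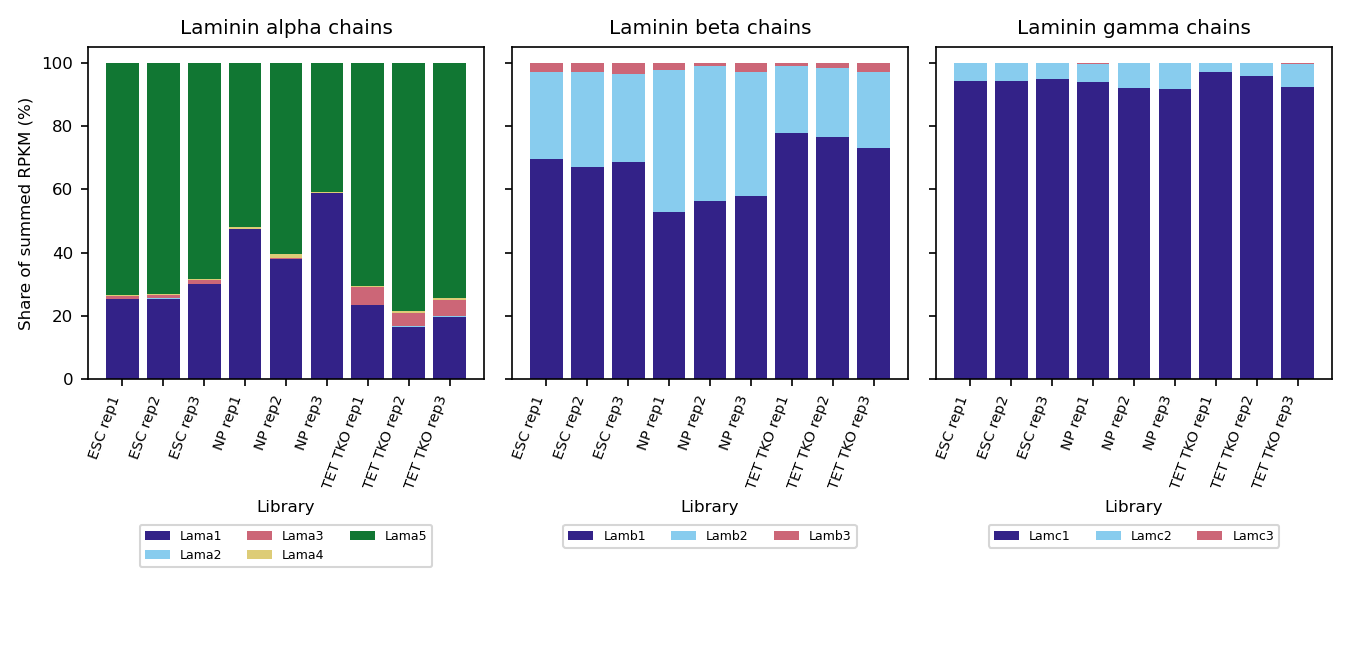
Share of the summed RPKM (y axis, percent) that each gene contributed to the laminin alpha, beta and gamma chains (panels) in the 9 libraries (x axis). Lama1 takes 37.9% to 58.8% of the alpha chains in NPs against 25.2% to 30.1% in ESCs, and Lama3 takes 4.30% to 5.51% in TET TKO ESCs.

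Summed over the genes, type IV collagen went from 21.4, 26.0 and 14.6 RPKM in ESCs to 154, 125 and 111 in NPs, whereas the laminins went from 173, 176 and 172 RPKM to 137, 123 and 95.5. The ratio of type IV collagen to laminin was 0.119 ± 0.032 in ESCs and 1.10 ± 0.07 in NPs (SD, n = 3). In NPs the summed RNA of the type IV collagen genes and that of the laminin genes thus stood at similar levels. Protein was not measured.

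Fibrillar collagens made up a small part of collagen and laminin RNA in ESCs and a larger one in NPs. Their summed level was 15.1, 14.6 and 16.1 RPKM in ESCs and 119, 117 and 76.3 in NPs. The ratio of basement membrane to fibrillar RNA accordingly went from 12.8 ± 1.17 to 2.43 ± 0.29 (SD, n = 3), without overlap. Of the 11 fibrillar genes 10 were tested, of which 4 were called higher and 1 lower, beside the backgrounds of 12.4% and 9.98%. DESeq2 called 6 higher, with Col1a2 and Col11a2 as the others, and 1 lower. In edgeR the median difference of the 10 was 2.43 on the log2 scale, against 0.34 for the basement membrane genes. Of the 11, 9 lay above every ESC library in all NP libraries, a count without a background over all genes.

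**Figure D4:**
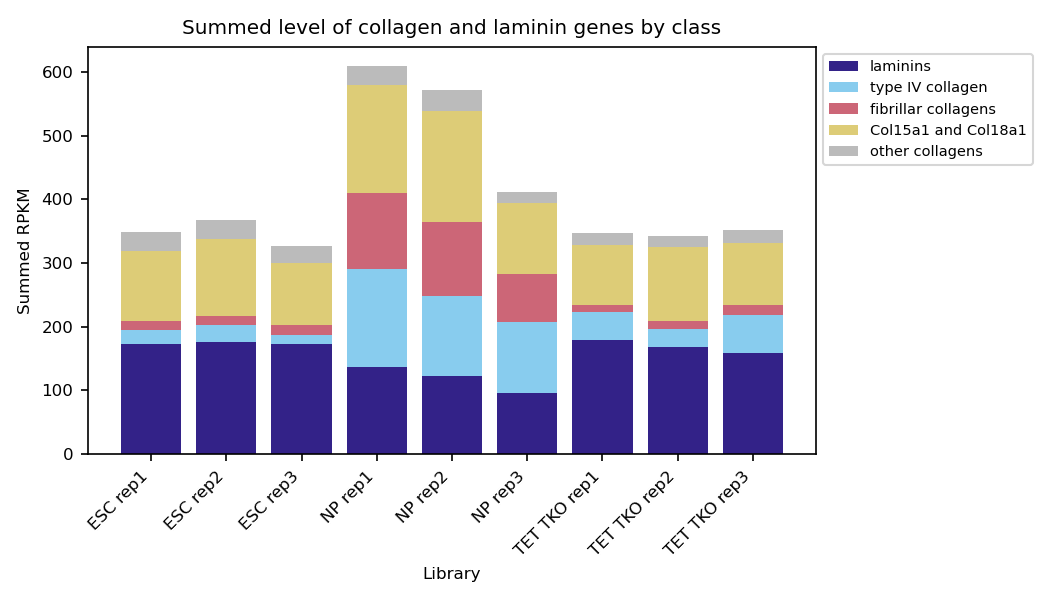
Summed RPKM (y axis) of laminins, type IV collagen, fibrillar collagens, Col15a1 with Col18a1, and the other collagens, stacked for each of the 9 libraries (x axis). Type IV collagen (111 to 154) and fibrillar collagens (76.3 to 119) are larger in NPs than in ESCs, while laminins are lower.

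The largest contributor to fibrillar RNA in each NP library was Col2a1, the main collagen of cartilage, which is also made by the embryonic neuroepithelium and notochord. Col2a1 was at 3.73, 3.25 and 4.09 RPKM in ESCs and at 75.5, 56.1 and 58.7 in NPs, a rise of 4.09 ± 0.17 on the log2 scale (edgeR adjusted p = 7.69e-07). It held 22.3% to 25.4% of fibrillar RNA in ESCs and 48.0% to 76.9% in NPs. Col11a1, whose chain forms heterotypic fibrils with type II collagen, was at 0.641, 0.553 and 0.804 RPKM in ESCs and at 6.17, 8.55 and 3.26 in NPs (3.15 ± 0.34, edgeR adjusted p = 7.53e-05). Col27a1, another cartilage collagen, rose by 2.02 ± 0.20 (edgeR adjusted p = 4.88e-05), from 0.572 to 0.617 RPKM in ESCs to 2.07 to 3.09 in NPs. The other fibrillar gene called higher was Col3a1.

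Col3a1 encodes a collagen of skin, vessels and loose connective tissue. It had 7, 21 and 3 counts in ESCs, or 0.0335, 0.0979 and 0.0124 RPKM, and 8.73, 8.53 and 0.936 RPKM in NPs. The groups were apart, but NP replicate 3 lay far under the other NP libraries. The rise was 6.97 ± 0.999 on the log2 scale (edgeR adjusted p = 0.000377), and the call was lost when any of the 3 ESC libraries, NP replicate 1 or NP replicate 2 was left out (adjusted p of 0.00102 to 0.00301, rise of 6.47 to 8.02).

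The type I collagen genes, chosen after their values were seen, showed the same spread among NP libraries. Col1a1 was at 6.45, 17.4 and 1.47 RPKM in NPs against 1.02 to 1.37 in ESCs (2.84 ± 0.73, edgeR adjusted p = 0.00843). Col1a2 was at 2.41, 8.93 and 0.531 RPKM in NPs against 0.0622 to 0.121 in ESCs (5.39 ± 0.99, edgeR adjusted p = 0.00147). Neither was called by edgeR, although every NP library lay above every ESC library. DESeq2 called Col1a2 higher (5.35 on the log2 scale, DESeq2 adjusted p = 9.3e-07). Without NP replicate 3, both were called, the fibrillar genes called higher numbered 6, and those among the 55 genes numbered 16, with Col14a1, Col22a1 and Col26a1 as the others.

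Fibroblast and mesenchyme markers followed a like order. Their summed level was 15.9, 20.7 and 8.67 RPKM in NP replicates 1 to 3, against 7.97 to 10.1 in ESCs. This order was not particular to them. In the same replicates the FACITs (18.5, 19.9 and 12.4 RPKM) and the multiplexins (169, 173 and 111 RPKM) had it too. The neural progenitor markers (227, 134 and 181 RPKM) did not. Of the 9 fibroblast and mesenchyme markers, 6 lay above every ESC library in all NP libraries, and Postn and Fbn1 were called higher among 5 tested. Again the first count has no background over all genes, and the calls stand beside 12.4%. Lum stood at 0.0352 to 0.252 RPKM and Dcn at 0.145 to 0.599 RPKM in NPs, Fap was at 0 in NP replicate 3, and Thy1 lay lower in NPs. Neural crest markers summed to 47.9, 33.6 and 46.5 RPKM in NPs against 17.6 to 26.9 in ESCs, with Tfap2b and Ednrb called higher and Foxd3 lower among 5 tested. Of 6 endothelial markers, Pecam1 and Tek were tested and both were called lower. Neuron markers were lowest in NP replicate 2 (80.3 RPKM, against 189 and 152), the library with most Col1a1 and Col1a2. In ESCs they summed to 121 to 137 RPKM, above that library, so the sum is no measure of neuron number. Of the 6 neuron markers, all tested, 4 were called higher in NPs and 1 lower. The part of these cell types in the fibrillar values was not tested.

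Col5a3 was called lower, and 1 of 10 fibrillar genes is near the background of 9.98%. This minor chain of type V collagen was at 2.01, 1.83 and 2.89 RPKM in ESCs and at 0.131, 0.260 and 0.133 in NPs, a difference of -3.69 ± 0.35 on the log2 scale (edgeR adjusted p = 3.61e-05). Col5a1, the major chain of the same collagen type, lay the other way, with 6.11, 6.10 and 5.96 RPKM in ESCs and 13.2, 12.9 and 8.08 in NPs (0.89 ± 0.18, edgeR adjusted p = 0.00232, not called). Col5a2, chosen after its values were seen, overlapped between the groups.

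**Figure D5:**
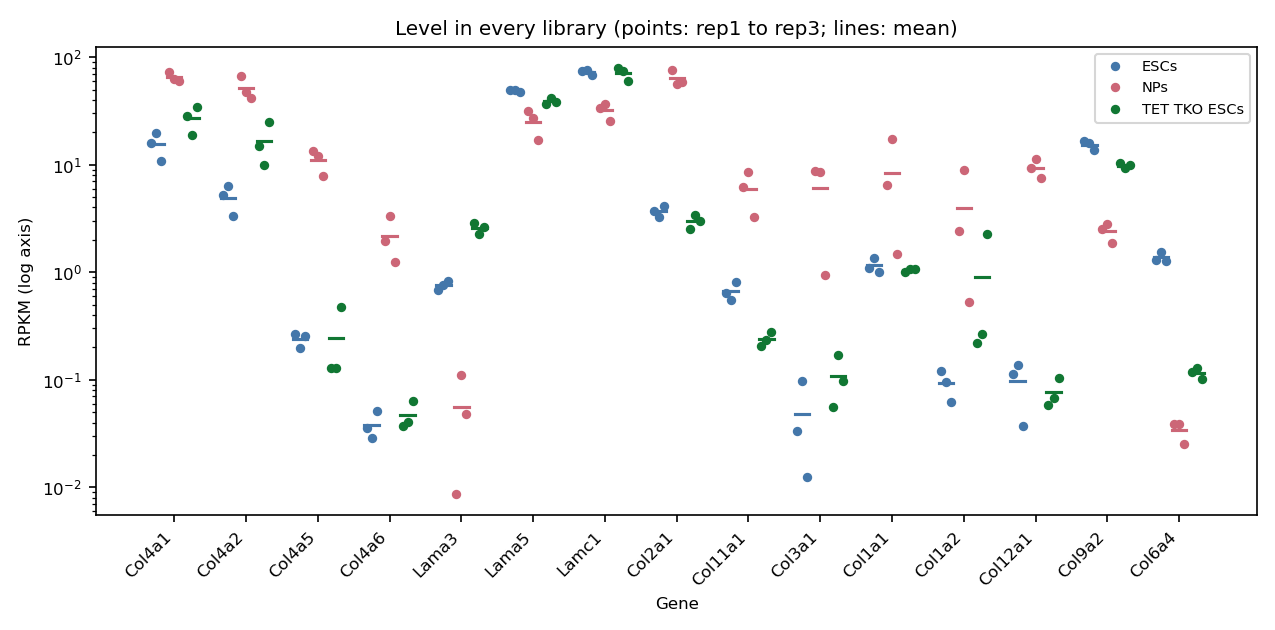
RPKM on a log axis (y) of 15 collagen and laminin genes (x), picked after their values were seen, in each library; points are replicates and lines are group means (n = 3). The NP points of Col3a1, Col1a1 and Col1a2 spread widely, from 0.936 to 8.73 RPKM for Col3a1, whereas those of Col4a1 and Col2a1 lie close together.

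Among the other collagens, genes of 1 class moved in opposite directions. Of the FACITs, Col12a1, which decorates type I fibrils, was at 0.114, 0.138 and 0.0374 RPKM in ESCs and at 9.22, 11.2 and 7.54 in NPs. Its rise of 6.59 ± 0.38 on the log2 scale (edgeR adjusted p = 3.42e-06) was similar in the 3 NP libraries, unlike that of Col3a1. Col9a2, a chain of the type IX collagen that coats type II fibrils, went the other way, from 16.6, 15.8 and 13.8 RPKM to 2.52, 2.79 and 1.88 (-2.70 ± 0.18, edgeR adjusted p = 7.47e-06). Col9a2 thus fell while Col2a1 rose.

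The beaded-filament class split by subfamily. Col6a1, a chain of the common type VI collagen, was at 0.107, 0.0941 and 0.195 RPKM in ESCs and at 2.21, 2.84 and 1.15 in NPs (3.92 ± 0.45, edgeR adjusted p = 0.000103). Col6a4 was at 1.31, 1.55 and 1.27 RPKM in ESCs and at 0.0385, 0.0386 and 0.0253 in NPs, on 5 to 8 counts a library, a fall of 5.32 ± 0.29 on the log2 scale (edgeR adjusted p = 2.72e-06). Col6a5 had 191, 190 and 205 counts in ESCs (0.886 to 0.953 RPKM) and 0, 1 and 1 in NPs. It reached the limit of 1 RPKM only in the scaling of these 6 libraries, and was called lower (edgeR adjusted p = 3.4e-06). It was not called with library sizes alone or with all 3 groups in the fit. Nor was it called without ESC replicate 1, NP replicate 2 or NP replicate 3. From the summed counts, 586 against 2, the level in ESCs was 298 times that in NPs, with an exact 95% interval of 82.0 to 2460 that covers counting error only. The third gene of this cluster, Col6a6, chosen after its values were seen, was too low to be tested and lay lower in all NP libraries as well (0.0141 to 0.0718 RPKM against 0.102 to 0.160).

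Of the transmembrane collagens, Col17a1, the hemidesmosome collagen of epithelia, was at 1.34, 1.38 and 1.33 RPKM in ESCs and at 0.0488, 0.0642 and 0.0524 in NPs, on 6 to 9 counts a library (-4.60 ± 0.29, edgeR adjusted p = 5.01e-06). Col23a1 was at 0.123, 0.152 and 0.262 RPKM in ESCs and at 1.24, 1.20 and 0.843 in NPs (2.58 ± 0.35, edgeR adjusted p = 0.000297). Its call was lost without ESC replicate 1, ESC replicate 2 or NP replicate 1 (adjusted p of 0.00139 to 0.00223, rise of 2.38 to 2.47). The 18 genes not tested between NPs and ESCs were under 0.833 RPKM or at it in all of these libraries. They were Col4a3, Col4a4, Lama2, Lama3, Lama4, Lamc3, Col24a1, Col9a1, Col16a1, Col19a1, Col6a3, Col6a6, Col15a1, Col25a1, Col8a1, Col8a2, Col10a1 and Col28a1.

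Few genes of any kind were called in TET TKO ESCs, 118 higher and 180 lower, and among the members these were Lama3 and Col6a4. Of the 55 genes, 24 were tested between TET TKO ESCs and ESCs. Lama3 alone was called higher, beside a background of 0.847% of the 13939 genes tested, and Col6a4 alone was called lower, beside a background of 1.29%. The other 22 were not called, and the median difference of the 24 genes was -0.34 on the log2 scale, against 0.02 over all genes. DESeq2 called 2 higher (with Col4a2) and 2 lower (with Col13a1), so with so few calls a single gene moves the count.

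Lama3 was at 0.678, 0.763 and 0.833 RPKM in ESCs and at 2.88, 2.27 and 2.62 in TET TKO ESCs. The libraries were apart, and the rise was 1.66 ± 0.16 on the log2 scale (edgeR adjusted p = 0.00052), or 3.15-fold. The rise lay just over the limit of a call, which was lost with all 3 groups in the fit, without any of the ESC libraries and without TET TKO replicate 1 (rise of 1.57 to 1.72, adjusted p of 0.00257 to 0.0149). Lama3 took 4.30% to 5.51% of the alpha chains in TET TKO ESCs against 1.01% to 1.19% in ESCs and 0.0145% to 0.246% in NPs. Its levels in NPs and in TET TKO ESCs lay on opposite sides of those in ESCs. It was the single edgeR call among the 10 basement membrane genes tested, with 0 called lower by edgeR or DESeq2. At an unadjusted p under 0.05 in edgeR, 4 were higher and 2 lower, beside 3245 and 3035 of all 13939 genes tested.

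Col6a4 was at 0.119, 0.130 and 0.102 RPKM in TET TKO ESCs, on 75 to 79 counts a library, against 1.27 to 1.55 in ESCs. It fell by 3.67 ± 0.22 on the log2 scale (edgeR adjusted p = 7.58e-05), and without ESC replicate 1 the adjusted p was 0.00102, on the other side of the limit. Col6a5, next to it, had 0.623, 0.900 and 0.0677 RPKM in TET TKO ESCs and was not tested. TET TKO replicates 1 and 3 lay below every ESC library, and replicate 2 within the ESC range.

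Mean levels of Col4a1 and Col4a2 were higher in TET TKO ESCs than in ESCs, without a call. Col4a2 was at 15.0, 9.89 and 24.7 RPKM, above every ESC library (1.63 ± 0.36, edgeR adjusted p = 0.0116), and it was called by DESeq2 (adjusted p = 1.83e-05) and without the filter on low values. Col4a1 was at 28.5, 18.8 and 34.4 RPKM and overlapped with ESCs (0.70 ± 0.27, edgeR adjusted p = 0.0794). The ratio of Col4a1 to Col4a2 was 1.90, 1.90 and 1.39, under that of every ESC library. Col4a5 (0.129 to 0.471 RPKM) and Col4a6 (0.0374 to 0.0640 RPKM) overlapped with ESCs and were not tested, so the X-linked pair showed no rise here like that in NPs.

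The laminins other than Lama3 differed by less than a call requires. Lama1 was at 12.2, 8.77 and 10.1 RPKM, under every ESC library (-0.94 ± 0.15, edgeR adjusted p = 0.00318). Lamb1 was at 35.3, 29.0 and 30.6 RPKM, above every ESC library (0.60 ± 0.10, edgeR adjusted p = 0.00444). Lama5 was at 36.9, 41.5 and 38.1 RPKM, under every ESC library (-0.45 ± 0.09, edgeR adjusted p = 0.00738). Lamc1 overlapped, with 78.8, 73.8 and 60.5 RPKM (-0.16 ± 0.12, edgeR adjusted p = 0.322), and so did Lamb2, with 8.34 to 10.1 RPKM (0.11 ± 0.11, edgeR adjusted p = 0.495). The summed laminins were 179, 168 and 159 RPKM, a range that takes in the 172 to 176 RPKM of ESCs.

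Fibrillar collagens gave 0 calls in either direction among the 5 of 11 tested in TET TKO ESCs, by edgeR and by DESeq2. With backgrounds of 0.847% higher and 1.29% lower, 0 calls among 5 genes says little about the class. At an unadjusted p under 0.05 in edgeR, 1 was higher and 3 lower, beside 3245 and 3035 of all 13939 genes. Col2a1 was at 2.55, 3.39 and 3.01 RPKM and overlapped with ESCs (-0.43 ± 0.16, edgeR adjusted p = 0.0808), and Col5a3 was at 1.19, 1.20 and 1.53 RPKM (-0.90 ± 0.23, edgeR adjusted p = 0.0194). Col5a1 was at 5.08, 4.65 and 5.32 RPKM, under every ESC library (-0.39 ± 0.11, edgeR adjusted p = 0.0247, not called). Col1a2, named after its values were seen, rested on 1 library, with 2.25 RPKM in replicate 3 against 0.221 and 0.265 in the others (3.18 ± 0.96, edgeR adjusted p = 0.0372). The summed fibrillar level was 11.5, 12.2 and 14.9 RPKM. The ratio of basement membrane to fibrillar RNA was 19.3, 16.2 and 14.7, each above the 11.5 to 13.9 of ESCs.

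Of the remaining named members, Col9a2 was at 10.3, 9.25 and 9.88 RPKM, below every ESC library (-0.77 ± 0.12, edgeR adjusted p = 0.00333), and Col17a1 overlapped at 1.12 to 1.37 RPKM. Col13a1, a transmembrane collagen chosen after its values were seen, was at 0.366, 0.325 and 0.609 RPKM against 1.58 to 2.02 in ESCs (-2.21 ± 0.30, edgeR adjusted p = 0.0019). It was called lower by DESeq2, without TET TKO replicate 3 and with the TET TKO libraries thinned to the depth of ESCs. The 31 genes not tested were under 1.02 RPKM or at it in these 6 libraries, on the scaling of all 9 libraries. Among the markers, 0 of 10 for extraembryonic endoderm and 0 of 9 for fibroblasts were called in TET TKO ESCs. Of these lists 1 and 3 were tested by edgeR, with 0 and 1 at an unadjusted p under 0.05. Of 6 pluripotency markers, 1 (Zfp42) was called lower. The backgrounds were 0.847% called higher and 1.29% lower, with 3245 and 3035 of 13939 genes at the unadjusted limit. With so few markers tested, 0 calls says little.

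Partner proteins of the basement membrane included genes called in both directions in NPs. Of 16 partner genes, all tested, 6 were called higher and 2 lower, beside the backgrounds of 12.4% and 9.98%. The calcium-binding Smoc2 rose from 0.0144 to 0.0808 RPKM to 4.65 to 18.4 RPKM (7.75 ± 0.71 on the log2 scale, edgeR adjusted p = 3.16e-05). The laminin-binding netrin Ntn4 (6.14 ± 0.36) and Fras1, which links epithelium and dermis (4.52 ± 0.27), also rose, as did Pxdn, the peroxidasin that cross-links type IV collagen, Frem2 and Npnt. The nidogens, which join laminin to type IV collagen, were both called lower. Nid1 was at 52.1, 53.1 and 58.3 RPKM in ESCs and at 4.47, 7.29 and 3.13 in NPs (-3.48 ± 0.28, edgeR adjusted p = 1.6e-05), and Nid2 fell by 2.91 ± 0.41. Nid1 was also the single partner gene called in TET TKO ESCs, at 15.9, 14.8 and 21.3 RPKM (-1.77 ± 0.15, edgeR adjusted p = 0.000325, among 12 tested, beside a background of 1.29%). Nid2 lay below every ESC library there too, at 62.2, 46.5 and 67.0 RPKM (-1.44 ± 0.14, edgeR adjusted p = 0.000541). It missed the call on its size alone, as did Smoc1 (-1.17, edgeR adjusted p = 0.000948). At an edgeR adjusted p under 0.05, 4 partner genes were higher and 4 lower, beside 2450 and 2227 of all 13939 genes tested.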

How the data were processed

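RNA-seq was measured in 3 ESC, 3 NP and 3 TET TKO ESC libraries. Per the file headers, the paper's methods and the submitters' processing notes (for tool versions), the authors trimmed single-end reads, with Trimmomatic 0.38 among the tools noted, aligned them to GRCm38 with STAR 2.6.1b and counted them per gene with featureCounts 1.6.2 on Ensembl 89, without regard to strand; the deposited values are raw counts. Although the kit was stranded, counting did not use strand, so reads of a gene and of an antisense gene that overlaps it cannot be told apart in these counts. Only 3 members (Col4a3, Lamc3 and Col9a3) share over 5% of their exon bases with other genes. Here, RPKM values were computed from the deposited counts with TMM scaling over the 9 libraries. Each pair of groups was fitted in edgeR 4.0.16 (R 4.3.3) with the quasi-likelihood test, after a filter of 1 RPKM in at least 1 library. SEs are the log2 fold change over the root of F. Alternatives were library sizes alone, DESeq2 1.42.0, other filters and limits, TPM for levels, all groups in 1 fit, the replicate number as a block, thinning, and each library left out. Named members were those called in either comparison and the 10 with the highest mean in each group. Other members given with values or beside a count (Col1a1, Col1a2, Col4a4, Col5a2, Col6a6, Col11a2, Col13a1, Col14a1, Col22a1 and Col26a1) were chosen after their values were seen. The members, classes and gene lists were chosen with earlier results of these data known. Library depth was 20519702 to 93210102 counts, and members with under 10 counts in a library are the least precise. Col21a1 and the fragment methylation tables of the series were not used here. Figures were drawn with matplotlib 3.10.9.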

Additional observations from a re-analysis of the deposited data

How the results depend on the processing

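Settings in which Col6a5 missed the filter in NPs are not in the next counts. Of the recomputed differences of named members, 506 kept their direction and side of the limits, 15 gained a call, 14 lost one and 7 changed sign. All 7 were those of Lamb1 in NPs, whose difference of 0.00 on the log2 scale became -0.03371 with DESeq2, -0.002946 with all 3 groups in the fit, -0.01506 with the replicate block and -0.09338 to 0.143 with a library left out, below 0 without ESC replicate 1 or 2 or NP replicate 1 or 2. The counts below are higher or lower calls, with the main value in brackets, and the cause was not tested. Without the filter on low values, more genes were called, also among those already tested, whose errors and adjusted p changed as well. For Col1a1 in NPs the SE went from 0.725 to 0.429 and the edgeR adjusted p from 0.00843 to 2.31e-06. In NPs there were 21 members higher [11], 8 lower [5], 8 fibrillar higher [4] and 1 basement membrane gene lower [0]. In TET TKO ESCs there were 4 higher [1], 4 lower [1], 2 basement membrane higher [1] and 1 fibrillar higher [0]. At an adjusted p under 0.05 with no limit on the fold, these were 21, 11, 8 and 3 in NPs and 5, 9, 3 and 1 in TET TKO ESCs, with 2 basement membrane and 2 fibrillar genes lower [0 and 0]. With a filter of 10 counts for all libraries of a group, 1 basement membrane gene was lower in NPs (Lama3) and 2 members were lower in TET TKO ESCs. With a fold of 2, 1 basement membrane gene was lower in NPs (Lamc1). With all 3 groups in the fit, 1 was lower in NPs (Lama3), and in TET TKO ESCs 0 members and 0 basement membrane genes were higher. DESeq2 gave 2 members higher, 2 lower and 2 basement membrane genes higher in TET TKO ESCs. Thinning TET TKO libraries to the depth of ESCs gave 2 members lower. With 1 library left out, TET TKO ESCs had 0 to 1 members and basement membrane genes higher and 0 to 2 members lower, and NPs had 9 to 16 members higher and 4 to 5 lower. Adding Col7a1, Col15a1 and Col18a1 to the basement membrane genes changed none of their counts, and the 10 highest members of each group were the same in TPM. The deviations of same-numbered libraries had correlations of -0.104 to 0.265. In TET TKO ESCs those of replicates 2 (0.265) and 3 (0.191) were the highest of their ESC library, and that of replicate 1 was -0.0709. With 3 libraries a group, these values cannot settle whether the numbers pair the libraries. The replicate block gave 12 members higher (with Col1a2, 4.75 on the log2 scale, adjusted p = 7.94e-05) and 5 lower in NPs and 1 and 1 in TET TKO ESCs; in TET TKO ESCs and NPs alike not every library correlated best with its own number.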

Other observations

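Genes that modify, fold and process collagen chains were described by counts from lists chosen with earlier results known. Of 18 genes for chain modification and folding, 16 were tested in NPs, with 5 called higher and 1 lower, beside backgrounds of 12.4% and 9.98% of all genes tested. Serpinh1, the collagen chaperone HSP47, was at 22.6, 24.7 and 24.7 RPKM in ESCs and at 134, 188 and 92.3 in NPs (2.51 ± 0.23 on the log2 scale, edgeR adjusted p = 3.2e-05). The prolyl hydroxylase genes P3h2 (3.39 ± 0.41) and P4ha1 (2.00 ± 0.26) rose, whereas Crtap, a partner of prolyl 3-hydroxylation, fell by 1.86 ± 0.25. In TET TKO ESCs 0 of 15 tested were called, beside backgrounds of 0.847% higher and 1.29% lower. At an unadjusted p under 0.05 in edgeR, 2 were higher and 2 lower, beside 3245 and 3035 of all 13939 genes.

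Of 13 genes for processing and cross-linking, 10 were tested in NPs, with 5 called higher and 2 lower, beside the same backgrounds. The procollagen C-proteinases Tll1 (3.56 ± 0.28) and Bmp1 (3.38 ± 0.27) and the lysyl oxidase Loxl2 (3.24 ± 0.39) had the largest rises. Adamts14, an N-proteinase, fell by 4.29 ± 0.31 and Pcolce2, an enhancer of the C-proteinase, by 4.24 ± 0.19. In TET TKO ESCs 0 of 7 tested were called, beside backgrounds of 0.847% higher and 1.29% lower. At an unadjusted p under 0.05 in edgeR, 2 were higher and 2 lower, beside 3245 and 3035 of all 13939 genes.

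Of 13 receptors, 9 were tested in NPs, and the integrin chain Itga2 (5.26 ± 0.51) and the collagen receptor kinase Ddr1 (1.76 ± 0.18) were called higher and 0 lower (3 at an unadjusted p under 0.05 in edgeR). The shares called are to be read beside the backgrounds of 12.4% and 9.98%, and the 3 beside 5035 of all 15197 genes tested. Itgb1, the chain shared by most matrix integrins, was at 41.9 to 47.9 RPKM in ESCs, 81.2 to 103 in NPs and 107 to 116 in TET TKO ESCs. It lay above ESCs in both other groups, which share these ESC libraries, and was called in neither (1.04 ± 0.12 and 1.19 ± 0.09). In TET TKO ESCs 0 of 10 receptors tested were called, beside backgrounds of 0.847% higher and 1.29% lower. At an unadjusted p under 0.05 in edgeR, 5 were higher and 2 lower, beside 3245 and 3035 of all 13939 genes.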
